A study of Mus musculus with 12 samples.

Results

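The genes described here encode the protein subunits of the cytosolic ribosome. They were taken by symbol from a table of gene expression: every symbol that starts with Rpl or Rps and a digit, together with Rplp0, Rplp1, Rplp2 and Rpsa. Pseudogene symbols (-ps), the ribosomal S6 kinases and Rps19bp1 were left out. The rule gave 85 of 22276 symbols, 52 for the large subunit and 33 for the small subunit. Expression was measured by RNA-seq in 4 organs (WAT, white fat; BAT, brown fat; liver; and quadriceps muscle) of male C57BL/6J mice. Each organ had 3 arms. NCD-veh mice ate normal chow and received the vehicle, HFD-veh mice ate a high-fat diet from 8 weeks of age and received the vehicle, and HFD-ncls mice ate the same high-fat diet and received narciclasine (ncls), an alkaloid of Amaryllidaceae plants. The vehicle was a hydroxypropyl cyclodextrin solution. Narciclasine (1 mg/kg) or vehicle was given weekly by oral gavage from 10 weeks of age, and organs were taken at 17 weeks. All mice were of the same wild-type strain, with no transgene. There was 1 library for each organ and arm, 12 in all, so differences between arms had no replicate check and no p-value is given for them. How many mice stood behind a library is not given in the sources used here, and the organs of an arm may come from the same mice. Where 3 values of an organ are listed, the chow library comes first, the HFD-veh library second and the HFD-ncls library last.

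A ribosome holds 1 copy of nearly every ribosomal protein, and most of these proteins are made from a single active gene that is expressed in every cell. Their mRNAs carry a 5′ terminal oligopyrimidine (TOP) tract, through which mTOR controls their translation. Narciclasine is known to bind the peptidyl transferase centre of the large subunit, near which Rpl3, Rpl4, Rpl8, Rpl10 and Rpl29 lie. A few subunits have a second gene with tissue-restricted expression, of which Rpl3l, the striated muscle paralog of Rpl3, is the best known.

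The sequences that set Rpl3 and Rpl3l apart are shown first because the clearest organ difference lay in this pair. Over 1205 aligned coding bases of the mm9 transcripts the pair was 74.9% identical, and the longest identical run was 22 bases. The first 90 coding bases are given 5′ to 3′, with the 21 bases that differ between the genes in capitals.
Rpl3 coding start: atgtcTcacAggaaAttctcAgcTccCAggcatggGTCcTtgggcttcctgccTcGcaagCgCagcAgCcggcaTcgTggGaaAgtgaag
Rpl3l coding start: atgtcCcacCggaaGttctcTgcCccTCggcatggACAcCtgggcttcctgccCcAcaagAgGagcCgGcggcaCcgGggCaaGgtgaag
On mm9, Rpl3 lies on chr15:79908211-79913836 (- strand) and Rpl3l on chr17:24864774-24873094 (+ strand).

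RefSeq promoters (GRCm38.p6, 250 bases before to 50 after the gene start) matched 64 of the 85 members, with 76 promoters. The TOP core CTTTCC, searched on the sense strand, was in 26 of the 64 members, in 38.2% of their promoters and in 14.1% of all 32851 promoters. It is 1 fixed string of letters, and a TOP tract lies at the 5′ end of the mRNA. A match elsewhere in the window is therefore not a TOP tract, and a member without the string may still carry one. Within 30 bases of the start it was in 17.1% of the members' promoters and 2.89% of all. The ETS core CCGGAAG, a site letter pattern of ETS family factors, was in 23.7% of the members' promoters on the sense strand and in 4.77% of all. With both strands searched, the shares were 50% and 26.6% for the TOP core, where a match on the other strand cannot be a TOP tract, and 35.5% and 8.86% for the ETS core. The YY1 core AAGATGGC was in 10.5% and 2.75% on both strands. Cores can overlap at their ends, as in a CCGGAAG followed by the rest of AAGATGGC. Windows of 60 bases before to 20 bases after the start are given for members with an organ difference described below, with TOP and ETS cores in capitals.
Rpl3l, chr17:24727766-24727845 (+ strand): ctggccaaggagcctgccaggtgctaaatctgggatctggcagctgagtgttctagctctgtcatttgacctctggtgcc
Rpl38, chr11:114668520-114668599 (+ strand): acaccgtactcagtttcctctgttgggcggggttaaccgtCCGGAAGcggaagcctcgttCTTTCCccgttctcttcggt
Rps27l, chr9:66946026-66946105 (+ strand): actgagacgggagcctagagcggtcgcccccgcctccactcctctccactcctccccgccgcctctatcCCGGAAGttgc
Rplp2, chr7:141447591-141447670 (+ strand): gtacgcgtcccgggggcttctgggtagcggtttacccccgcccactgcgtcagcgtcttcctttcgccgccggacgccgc
Rpl38 had both cores, Rps27l had the ETS core just after the start, and the Rpl3l and Rplp2 windows held neither string of letters. The Rplp2 window reads ctttcg from the gene start. These bases are pyrimidines up to the g, and the search for CTTTCC did not count them.

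**Figure D1:**
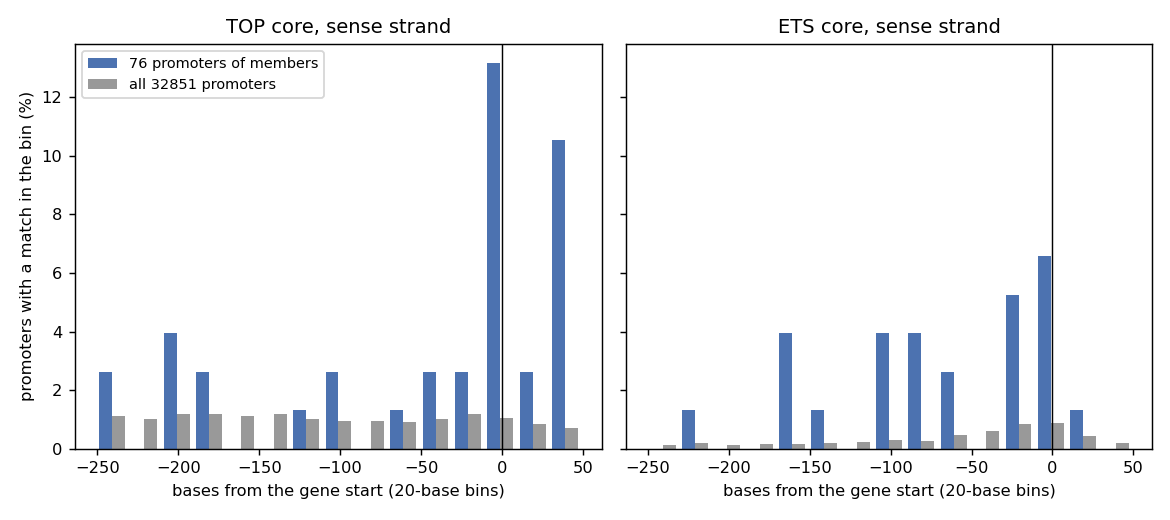
Share of promoters (%) with the first base of the TOP core or the ETS core in each 20-base bin, against the distance in bases from the gene start, for the 76 promoters of members and all 32851 promoters (the pair of bars in a bin stands side by side). The TOP core was in 13.2% of the members' promoters in the bin that holds the start and in 1.04% of all.

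Ribosomal protein mRNAs were abundant in every library. The 85 members summed to 12457 ± 452 FPKM in WAT, 9885 ± 256 in BAT, 10315 ± 902 in liver and 7597 ± 212 in muscle (SD over the 3 arms of each organ), where FPKM is a fragment count scaled by transcript length and by the mapped fragments of the library. They made up 3.55% ± 0.13 of all listed FPKM in WAT, 3.804% ± 0.045 in BAT, 2.06% ± 0.11 in liver and 2.12% ± 0.042 in muscle. Genes without a value are missing from these totals, among them Alb in liver and Myh4 in muscle. With such genes counted the liver and muscle shares would be lower, by an unknown amount. The order by summed FPKM put WAT highest, and the order by share put BAT highest. The ratio of summed small to large subunit FPKM stayed between 0.670 and 0.735 in the 12 libraries. Depth is unknown, since the table holds FPKM alone, and in bulk tissue fewer cells of a type and less RNA per cell cannot be told apart.

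**Figure D2:**
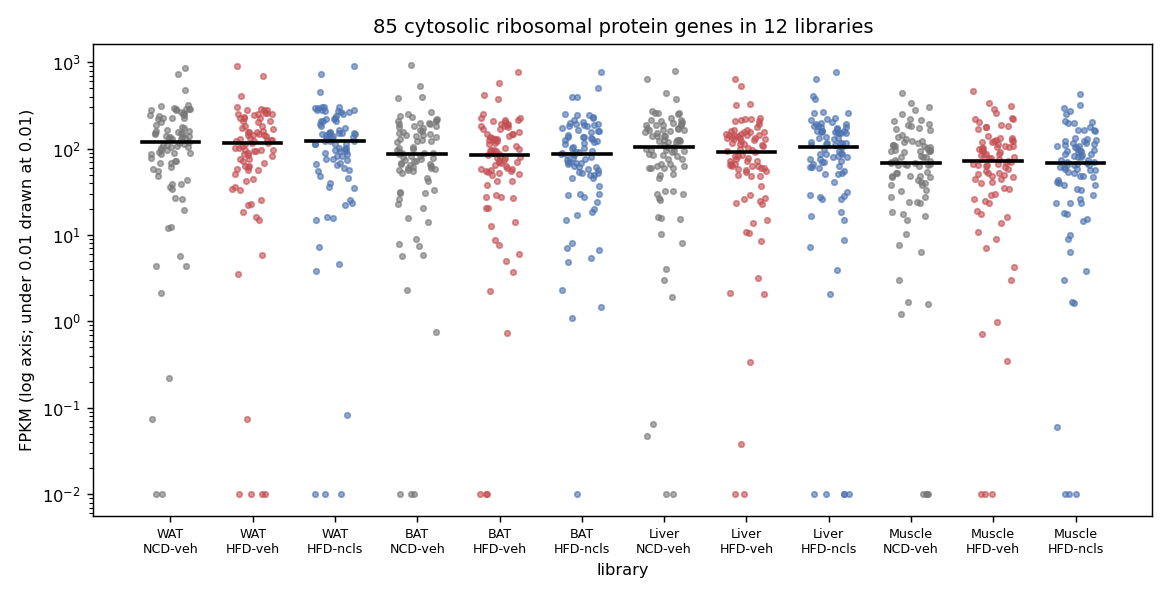
FPKM (log axis) of each of the 85 members in each library, with the median as a bar. The medians lie between 68.2 in muscle HFD-ncls and 123 in WAT HFD-ncls, and members with no signal sit at the floor of the plot.

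Rpl41, Rplp1, Rps15, Rpl38 and Rps26 were among the members with the highest mean FPKM. Rpl41, the smallest subunit of the ribosome, averaged 899 ± 28.9 FPKM in WAT, 822 ± 85.6 in BAT, 737 ± 77.0 in liver and 313 ± 20.7 in muscle (SD, n = 3 libraries). Rplp1, an acidic protein of the stalk that recruits elongation factors, averaged 717 ± 26.3 in WAT, 534 ± 32.7 in BAT, 606 ± 60.5 in liver and 445 ± 19.0 in muscle. Its partner Rplp2 had another order, with 203 ± 7.73 in BAT, 161 ± 14.0 in WAT, 89.8 ± 5.47 in muscle and 84.1 ± 16.0 in liver, where the last pair lay within their spread. Rplp0, the base of the stalk, averaged 258 ± 12.9 in WAT, 196 ± 8.46 in muscle, 172 ± 16.9 in liver and 171 ± 11.1 in BAT. The stalk genes therefore did not share their order of organs. Rpsa, a small subunit protein also known as the laminin receptor, ranged from 91.6 to 185.

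Some members were low or unstable in this table. Rpl10l, a paralog of Rpl10 known from the testis, was listed at 0 in all 12 libraries, where Rpl10 was at 51.9 to 122 FPKM. Rpl22, which lies on mm9 chr4:151699851-151708180 (+ strand), was listed at 16.9 FPKM in BAT HFD-ncls and below 0.1 in each of the other 11 libraries. Rpl26 was listed at 2.11, 0.000307 and 4.66 in WAT, at 0.000265, 0.000303 and 5.43 in BAT, at 1.93, 2.07 and 0.000297 in liver, and below 0.1 in all 3 muscle libraries. These are read as failed estimates in the libraries near 0 and not as absence of the mRNA. By a fixed rule (below 0.1 FPKM in 1 library and at least 5 in another of the same organ) Rpl22 and Rpl26 were left out of the BAT counts below, whereas Rpl26 in WAT and liver missed the rule and was counted. Rpl30 (1.70 to 18.6 FPKM), Rps15a (2.10 to 4.36) and Rps27 (0.718 to 7.80) had values in every library but lay far below the medians of the members. The pseudogene symbols Rps15a-ps4 and Rps15a-ps6 were listed at 12.3 to 24.4 and 8.51 to 15.4 FPKM, above Rps15a itself, and how reads shared between such copies were assigned is not given in the sources used here. The levels of these genes are therefore uncertain.

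Organs were compared with limma on log2(FPKM + 0.1), each organ against the mean of the other 3, with arm as a second term and Benjamini-Hochberg adjustment over 13648 genes that reached 1 FPKM in at least 1 library. The p-values measure the spread left after organ and arm. By the F test 80 of the 84 members tested differed between organs, beside 97.9% of all genes. Rpl22, Rpl26 and Rps13 were among those that did not pass, and Rps13, a small subunit protein, ranged from 51.4 to 66.0 FPKM over all libraries. In FPKM, 67 members were higher and 3 lower in WAT (all genes, 71.0% higher and 14.1% lower), and 20 were higher and 24 lower in BAT (23.5% and 44.2%). In liver 28 were higher and 11 lower (25.5% and 52.2%), and in muscle 2 were higher and 71 lower (21.9% and 59.4%). The median difference of the members was 0.52 in WAT, -0.06 in BAT, 0.08 in liver and -0.57 in muscle on the log2 scale, and that of all genes 1.01, -0.28, -0.43 and -0.70. The group's direction depended on the scaling: with libraries scaled by the median ratio over 7125 genes, the median of the members was -0.29 in WAT, 0.15 in BAT, 0.32 in liver and -0.21 in muscle, with 4 higher and 49 lower in WAT (all genes, 45.6% and 30.9%), 32 and 7 in BAT (30.1% and 34.7%), 58 and 4 in liver (31.7% and 43.3%), and 10 and 39 in muscle (30.3% and 49.0%). The median of all genes was then 0.24, -0.08, -0.19 and -0.36. Without the BAT HFD-ncls library the BAT calls dropped from 44 to 29, with 13 higher and 16 lower. Over all genes they dropped from 9242 to 7759, with 2844 higher and 4915 lower. In liver 17 members were higher without the NCD-veh library and 4 lower without the HFD-veh library. Over all genes the liver count higher went from 3483 to 3306 without NCD-veh. The count lower went from 7120 to 6755 without HFD-veh.

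Single members that passed in the same direction under FPKM, the median ratio and a centring on the members' own median are described next, since these stand out within the group itself. There were 4 higher and 3 lower in WAT, 20 higher and 7 lower in BAT, 11 higher and 4 lower in liver, and 2 higher and 20 lower in muscle. The share of all genes that passed in this way was not computed, so the counts serve only to pick the members described. For the profile over 78 members that reached 1 FPKM in all libraries, r across genes was 0.984 to 0.998 between WAT libraries. It was 0.993 to 0.998 between muscle libraries and 0.906 to 0.927 between WAT and muscle (genes are not independent replicates). The filter left out Rpl3l, Rps4y2 and Rps27, which differed strongly between muscle and other organs. No r over all genes was computed, so these values do not show that the members were more alike than other genes.

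**Figure D3:**
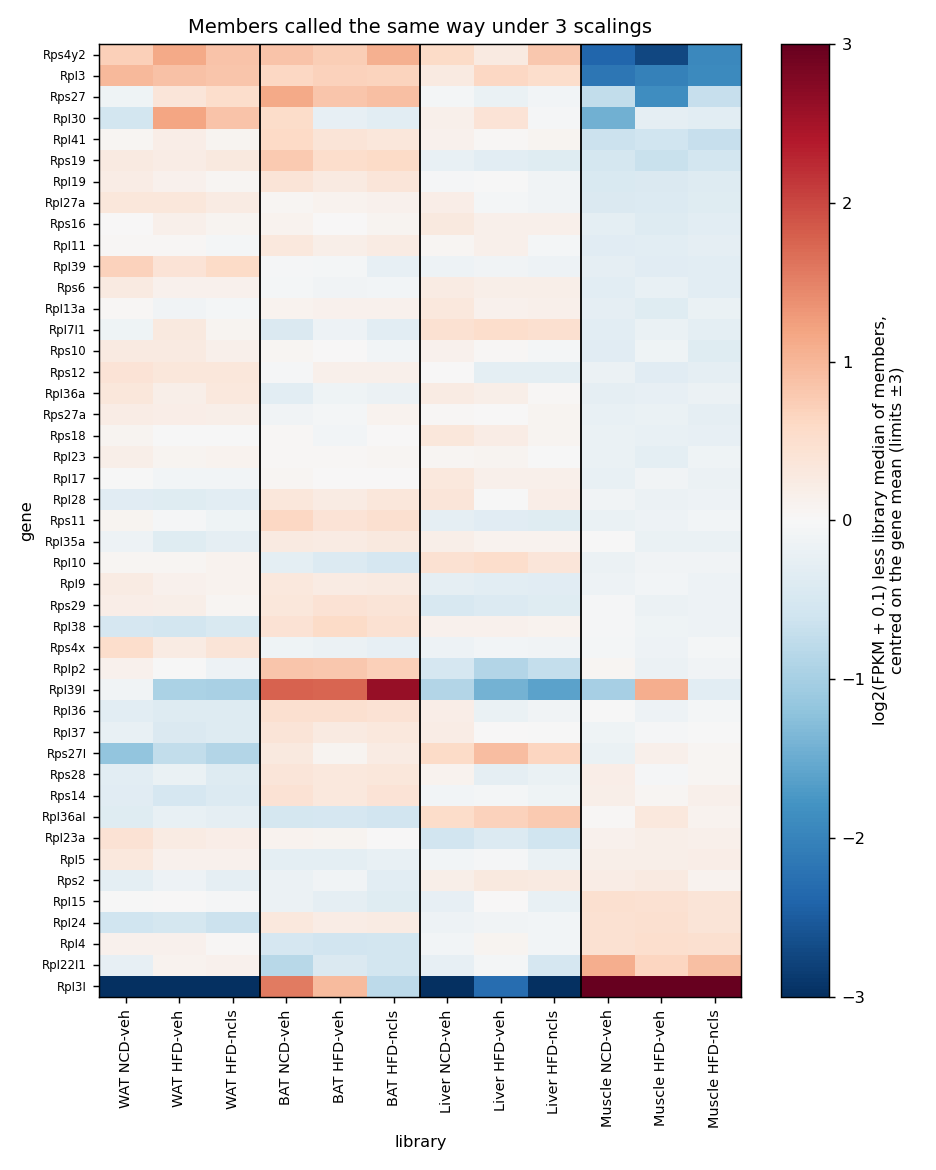
Heat map of the 45 members (rows) with such a difference in at least 1 organ over the 12 libraries (columns). Colour is log2(FPKM + 0.1) less the library's median of members, centred on the gene mean and limited to ±3. Rpl3l and Rpl22l1 are high in the 3 muscle libraries, and Rps4y2 and Rpl3 are low there.

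Muscle expressed mainly Rpl3l, and the other organs mainly Rpl3. Rpl3l stood at 336, 310 and 317 FPKM in muscle, where it ranked 2, 3 and 2 among the 85 members. It was between 0 and 0.0750 FPKM in WAT, between 0 and 0.342 in liver, and at 5.91, 3.77 and 1.10 in BAT. Rpl3 showed the reverse, at 7.71, 8.99 and 9.12 FPKM in muscle against 118, 107 and 112 in WAT, 68.7, 69.7 and 71.0 in BAT, and 63.6, 71.4 and 75.9 in liver. No muscle library overlapped with any other library for either gene. In FPKM 54 of the 85 members lay below all 9 other libraries in muscle and 1 above, with no share of all genes to set beside this. By limma 59.4% of all genes were lower in muscle, so the count of 54 is not read as a trait of the members. Rpl3l made up 97.4% ± 0.33 of the summed FPKM of its pair with Rpl3 in muscle (SD, n = 3), 4.86% ± 3.21 in BAT, 0.183% ± 0.256 in liver and 0.0211% ± 0.0365 in WAT. The sum of the pair was 319 to 344 in muscle and 63.7 to 118.5 elsewhere. The fitted muscle difference was -3.24 for Rpl3 (SE 0.078, limma adjusted p = 5.15e-09) and 9.62 for Rpl3l (SE 0.42, adjusted p = 5.01e-08), and the latter depends on the pseudocount because Rpl3l was listed at 0 in 3 libraries. Eef1a1, the elongation factor whose mRNA is also of the TOP class, and its muscle and neuronal paralog Eef1a2 moved alike: Eef1a1 was at 56.5, 75.7 and 75.6 FPKM in muscle and at 719 to 1525 elsewhere, and Eef1a2 at 823, 754 and 777 in muscle and at most 13.3 elsewhere. The muscle difference was -4.07 for Eef1a1 (SE 0.11, limma adjusted p = 6.88e-09) and 10.2 for Eef1a2 (SE 0.91, adjusted p = 4.88e-06).

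**Figure D4:**
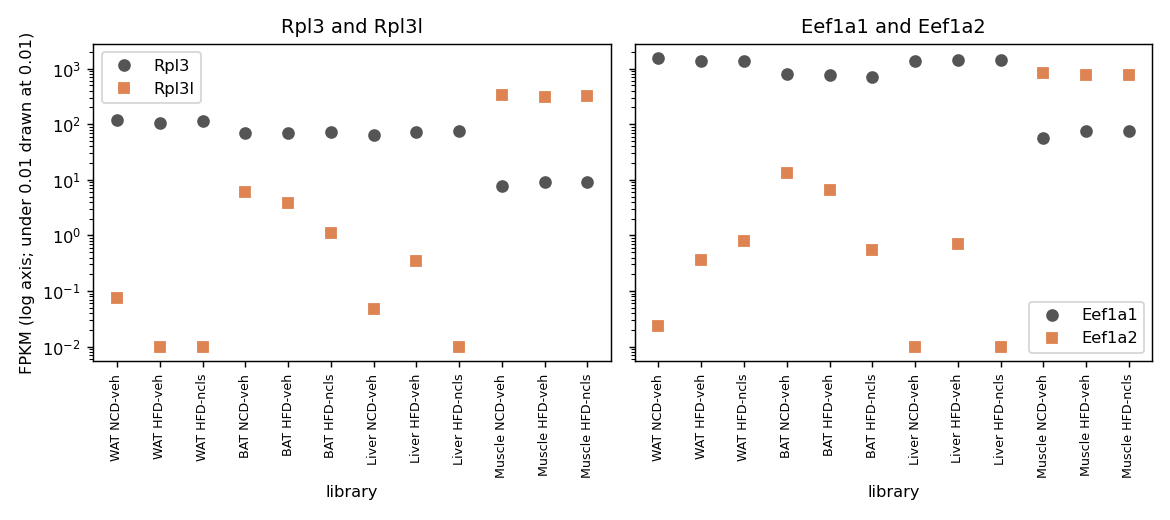
FPKM (log axis) of Rpl3 and Rpl3l (left) and of Eef1a1 and Eef1a2 (right) in each library, with values under 0.01 drawn at 0.01. In the 3 muscle libraries Rpl3l and Eef1a2 lie above their partners, and in the other 9 libraries below.

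The Rpl3l signal in BAT moved with genes of muscle fibres. BAT Rpl3l was 1.76%, 1.22% and 0.346% of the level in muscle of the same arm. Ckm, the muscle creatine kinase, was at 1.504%, 0.744% and 0.112% of its muscle level in the same BAT libraries, and Acta1, skeletal actin, at 1.97%, 0.954% and 0.116%. All 6 skeletal muscle markers were at or above 1 FPKM in each BAT library, and their sum was 1459, 608 and 85.6 FPKM. The part of muscle transcripts in the BAT values of Rpl3l was not tested.

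Other members were low in muscle beyond the group. Rps4y2, an autosomal copy on mm9 chr6:148303178-148304120 (+ strand) that RefSeq lists with the synonym Rps4l as a transcribed pseudogene, was at 1.22, 0.998 and 1.69 FPKM in muscle, at 19.4, 25.3 and 22.2 in WAT, at 15.7, 14.1 and 18.3 in BAT and at 15.4, 10.9 and 18.3 in liver. All muscle values were below all others (difference -3.66, SE 0.14, limma adjusted p = 3.04e-08). It shared 80.1% of its coding bases with Rps4x, with an identical run of 35 bases, so reads may have been split between them. Rps4x, the X-linked small subunit gene, was at 321, 255 and 299 FPKM in WAT and at 122 to 181 elsewhere, and was higher in WAT (1.01, SE 0.079, limma adjusted p = 1.63e-06). Rps19, a small subunit protein mutated in Diamond-Blackfan anaemia, stood at 24.0, 23.2 and 23.5 FPKM in muscle, 45.4, 37.1 and 41.0 in liver, 72.9, 69.1 and 77.0 in WAT and 75.9, 62.4 and 66.1 in BAT, so both adipose depots lay above liver and liver above muscle. Rpl41 (-1.38, SE 0.10, limma adjusted p = 1.53e-06) and Rps27 (-2.0, SE 0.20, limma adjusted p = 1.19e-05) were also lower in muscle. Rpl30 was lower there too (-1.43, SE 0.36, limma adjusted p = 0.00444), with 1.70, 4.25 and 3.84 FPKM.

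Rpl22l1, the paralog of Rpl22, was the other member higher in muscle under each scaling (0.64, SE 0.13, limma adjusted p = 0.00128). It was at 17.4, 13.7 and 15.4 FPKM in muscle and at 12.02, 15.0 and 16.3 in WAT, which overlapped, and at 5.80 to 7.57 in BAT and 8.81 to 10.4 in liver. The mean it was set against holds the lower BAT and liver values. Whether it stood in for Rpl22 could not be read, because Rpl22 itself was near 0 in 11 libraries.

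BAT was marked by Rplp2 and a set of members higher than the mean of the other 3 organs. That mean holds the low muscle values, and some of the set were higher in WAT than in BAT. Among them Rpl41 averaged 899 FPKM in WAT and 822 in BAT, and Rpl19 averaged 213 and 179. Rplp2 was at 211, 204 and 196 FPKM in BAT, 177, 155 and 150 in WAT, 98.8, 67.1 and 86.5 in liver and 96.1, 86.6 and 86.8 in muscle, and the BAT values lay above all others (0.94, SE 0.092, limma adjusted p = 2.22e-05). Rpl38, a large subunit protein known for its part in the translation of Hox mRNAs, was at 391, 419 and 399 in BAT and at 203 to 377 elsewhere. Rpl39l, the paralog of Rpl39 known from the testis, was higher in BAT by the fit (2.61, SE 0.45, limma adjusted p = 0.000742) but at only 0.758, 0.731 and 1.46 FPKM, against 88.7 to 101 for Rpl39 in the same libraries. On the low side, Rpl4, a large subunit protein of the exit tunnel, was at 135, 125 and 132 FPKM in BAT and at 209 to 287 elsewhere (-0.85, SE 0.072, limma adjusted p = 9.96e-06). Rpl36al (-0.84), Rpl22l1 (-0.92), Rpl10 (-0.64) and Rpl7l1 (-0.51) were lower in BAT as well, each past the adjusted threshold.

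Liver was marked by the paralogs Rps27l and Rpl36al. Rps27l, a p53-inducible paralog of Rps27, was at 127, 141 and 134 FPKM in liver, 87.1, 74.2 and 85.3 in BAT, 48.6, 66.6 and 58.6 in muscle and 42.8, 56.6 and 55.0 in WAT. All liver values were above all others (1.10, SE 0.11, limma adjusted p = 8.22e-06). Rpl36al, the autosomal copy of the X-linked Rpl36a, was at 226, 219.5 and 269.1 FPKM in liver and at 87.5 to 153 elsewhere (1.05, SE 0.096, limma adjusted p = 5.65e-06). Rpl36al made up 81.5% ± 2.32 of its pair with Rpl36a in liver, 80.2% ± 1.64 in muscle, 71.1% ± 1.46 in BAT and 67.5% ± 2.32 in WAT, so liver and muscle did not differ beyond their spread in this share. The pair was 87.9% identical in coding sequence with a longest run of 24 bases. Rpl7l1, a paralog of Rpl7, was at 16.3, 15.1 and 16.8 FPKM in liver and was higher there (0.81, SE 0.091, limma adjusted p = 2.48e-05), although WAT reached 16.3 in HFD-veh. Rplp2 (-0.78, SE 0.092, limma adjusted p = 3.35e-05), Rpl23a (-0.55, SE 0.073, limma adjusted p = 8.68e-05) and Rps29 (-0.40, SE 0.079, limma adjusted p = 0.00109) were lower in liver, and Rps29 did not pass under the median ratio (adjusted p = 0.113).

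WAT was set apart by Rpl39, a small protein of the exit tunnel coded on the X chromosome. It was at 229, 184 and 220 FPKM in WAT and at 65.7 to 111 elsewhere, with no overlap (1.24, SE 0.083, limma adjusted p = 5.97e-07). Rpl3 (1.69, SE 0.078, limma adjusted p = 7.69e-08) and Rps4y2 (1.70, SE 0.14, limma adjusted p = 2.96e-06) were also higher, with the low muscle values in the mean they were set against. Rps27l (-0.75, SE 0.11, limma adjusted p = 0.000101) and Rpl24 (-0.29, SE 0.078, limma adjusted p = 0.00569), a late-joining large subunit protein, were lower in WAT. Rpl30 was higher in WAT in FPKM (1.16, SE 0.36, limma adjusted p = 0.0127), a call lost under both other scalings (adjusted p = 0.366 and 0.119).

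The high-fat diet was compared with chow by the difference of the 2 vehicle libraries of each organ, with members called past 1.4-fold. In liver the members lay lower in HFD-veh almost throughout: 75 of 81 were below 0 and 6 above, where 54.0% of all genes were above 0. Their median was -0.22 on the log2 scale beside 0.04 for all genes, and the summed FPKM was 11075 in NCD-veh and 9318 in HFD-veh. Rpl28, Rpl35, Rpl36, Rplp2, Rps12, Rps28 and Rps4y2 were the 7 past 1.4-fold lower (10.5% of all genes), and 0 were past it higher (13.3%). Rpl36 had 190 FPKM in NCD-veh and 129 in HFD-veh liver, a difference of -0.56, and Rpl28 had 197 and 134. Rpl3 (0.17), Rps27l (0.15) and Rpl26 (0.10) had the highest liver differences. In WAT the median was -0.09 (all genes 0.03), with 61 of 81 below 0 and 20 above (all genes, 52.7% above). In BAT it was -0.08 (all genes -0.04), with 60 of 81 below 0 and 21 above (all genes, 44.7% above). In muscle it was 0.06 (all genes 0.03), with 25 of 81 below 0 and 56 above (all genes, 55.1% above). Few members passed the fold elsewhere: Rpl30 higher and Rpl26 lower in WAT (16.3% of all genes higher, 13.0% lower), Rpl30 and Rpl3l lower in BAT (9.34% and 8.23%), and Rpl30 higher and Rps27 lower in muscle (7.74% and 5.52%). Each of these was at or below 18.6 FPKM in the libraries compared.

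Narciclasine was compared with vehicle within the high-fat diet. The HFD-veh library is shared with the diet comparison, so the 2 sets of values are not independent. In liver 72 of 81 members were above 0 in HFD-ncls (all genes, 52.4%), with a median of 0.16 (all genes 0.02), and the summed FPKM was 10551 against 9318. Rps4y2 was past 1.4-fold higher in liver and Rpl26 lower (6.88% of all genes higher, 8.07% lower). Rplp2 had 98.8, 67.1 and 86.5 FPKM in liver, and Rpl28 had 197, 134 and 177. Both were lowest in HFD-veh. In WAT the median was 0.10 (all genes 0.04), with 68 of 81 above 0 (all genes, 58.5%). Rpl26, near 0 in HFD-veh, was past the fold higher there and none lower (6.39% and 1.28%). In BAT the median was 0.06 (all genes -0.02), with 53 of 82 above 0 (all genes, 46.0%), Rpl39l past the fold higher and Rpl3l lower (2.25% and 6.28%). In muscle the median was -0.07 (all genes 0.04), with 66 of 81 below 0 and 15 above (all genes, 55.5% above). Rps27 and Rps4y2, both at or below 1.69 FPKM, were past the fold higher there and none lower (8.46% and 5.48%). The lowest muscle difference was that of Rps10, at 82.5, 101 and 80.9 FPKM (-0.33).

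**Figure D5:**
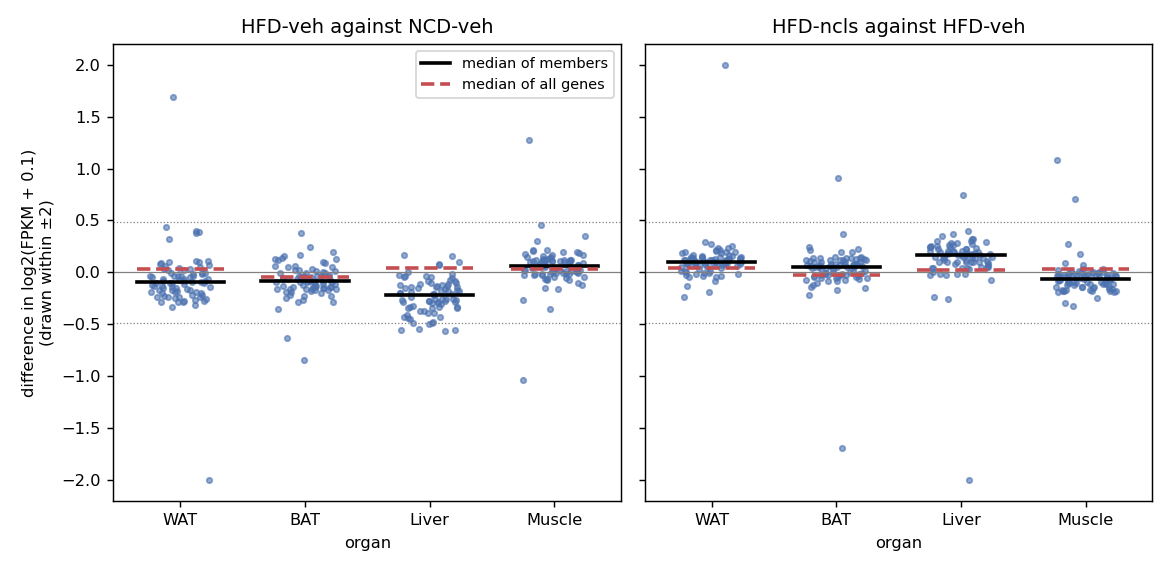
Difference in log2(FPKM + 0.1) of each member between arms, for diet (left) and narciclasine (right), by organ. Solid bars are the median of members, dashed bars that of all genes, dotted lines mark 1.4-fold, and values past ±2 are drawn at ±2. The liver members lie below all genes for diet, at -0.22, and above them for narciclasine, at 0.16.

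Set directly against chow with vehicle, HFD-ncls members had a median of 0.00 in WAT, -0.03 in BAT, -0.07 in liver and -0.01 in muscle, a comparison that does not use HFD-veh. In this order 40 of 81, 32 of 82, 20 of 81 and 38 of 81 members were above 0 (all genes, 57.1%, 41.9%, 56.0% and 63.7%). Under the median ratio the medians of the members were -0.05, 0.04, -0.15 and -0.09, with 30 of 81, 54 of 82, 8 of 81 and 12 of 81 members above 0, so BAT turned sign. The share of all genes above 0 was not computed under the median ratio. The sign of the diet and narciclasine medians was the same under the median ratio in all 4 organs, at -0.27 for diet and 0.14 for narciclasine in liver. The diet median in BAT kept its sign but shrank from -0.08 to -0.02. Of 81 members there, 37 were then above 0, where 21 were in FPKM. For HFD-ncls against NCD-veh, all genes had medians of 0.07, -0.06, 0.05 and 0.08 in FPKM. Under the median ratio these were 0.02, 0.006, -0.02 and -0.001. Some libraries held transcripts of another organ. The HFD-veh muscle library held all 6 hepatocyte markers at or above 1 FPKM, with a sum of 452 FPKM, and the other muscle libraries held none, with sums of 1.30 and 0.733. The HFD-veh liver library had a summed skeletal muscle marker level of 48.4 FPKM against 1.97 and 2.94 in the other liver libraries. In WAT the hepatocyte markers summed to 6.59, 49.95 and 182 FPKM, and all 6 were past 1.4-fold higher for diet (median 3.86) and for narciclasine (median 1.77). The part of these in the diet and narciclasine values was not tested.

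The members nearest the narciclasine site lay within 1.4-fold between HFD-veh and HFD-ncls, the order of the values here. Rpl3 was at 71.4 and 75.9 FPKM in liver, at 107 and 112 in WAT, at 69.7 and 71.0 in BAT and at 8.99 and 9.12 in muscle. Rpl4 was at 212 and 218 in liver, 279 and 282 in WAT, 125 and 132 in BAT and 227 and 209 in muscle. Rpl8 was at 218 and 259 in liver, Rpl10 at 112 and 115 and Rpl29 at 72.7 and 83.3. Rpl10a was listed with them but forms the mobile stalk at the exit site and is not among the proteins near the centre named above. It was at 126 and 150 in liver. None of these 6 genes passed 1.4-fold in any of the 4 organs, where 1.28% to 8.46% of all genes passed it in each direction, so a count of 0 does not set them apart.

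Other genes of the translation machinery were listed for comparison, and their counts stand beside the shares of all genes on the FPKM scale (71.0% higher and 14.1% lower in WAT, 23.5% and 44.2% in BAT, 25.5% and 52.2% in liver, and 21.9% and 59.4% in muscle). Of the ribosomal proteins named otherwise, Fau, the fusion with Rps30, was lower in muscle (-1.14, SE 0.081, limma adjusted p = 1.04e-06), and Gnb2l1, which encodes RACK1, was higher in WAT (0.76, SE 0.083, limma adjusted p = 1.63e-05). Both were lower in muscle by limma. Of 16 other TOP mRNAs, 12 were higher and 1 lower in WAT, near the share of all genes, 2 and 13 in BAT, 4 and 8 in liver, and 7 and 5 in muscle. Nap1l1, a histone chaperone (2.84), and Pabpc1, the poly(A)-binding protein (2.02), were higher in WAT, each past the adjusted limma threshold. Hnrnpa1 was lower in BAT by the fit (-1.48, SE 0.57, limma adjusted p = 0.0424). It was low and unstable, at 2.54, 0.621 and 0.619 FPKM in BAT, which overlapped with 5.61, 2.12 and 0.656 in liver. The narciclasine medians of the other TOP mRNAs were 0.03 in WAT, 0.06 in BAT, 0.11 in liver and 0.00 in muscle.

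The 76 mitochondrial ribosomal proteins, which build a separate ribosome, had another order of organs. In BAT 56 were higher and 2 lower, whereas in WAT 9 were higher and 40 lower, in liver 14 and 35, and in muscle 21 and 28. Mrps36 was at 143, 141 and 156 FPKM in BAT and at 7.87 to 41.8 elsewhere (2.83, SE 0.11, limma adjusted p = 2.08e-07). Mrpl34 (1.81) and Mrps35 (1.67) were also higher in BAT, and Mrps6 was higher in WAT (2.85), each past the adjusted threshold. For diet in liver their median was 0.20, where that of the cytosolic members was -0.22, and for narciclasine in liver it was 0.12. Of 38 ribosome biogenesis genes, 28 were higher and 1 lower in WAT, again near the 71.0% of all genes higher there, 2 and 27 in BAT, 4 and 12 in liver, and 11 and 12 in muscle. Rrp12 was higher in muscle (2.17), Utp20 higher in WAT (1.57), Tsr1 lower in BAT (-1.89) and Sbds, which helps to release Eif6 from the large subunit, lower in muscle (-1.60). Their diet median was 0.26 in WAT, with 9 past 1.4-fold higher and 1 lower (all genes, 16.3% and 13.0%), and their narciclasine median was 0.15 in liver. Of 10 regulators tested, 8 were higher and 0 lower in WAT by limma, 1 and 5 in BAT, both near the shares of all genes (71.0% higher in WAT, 44.2% lower in BAT), 2 and 4 in liver, and 3 and 6 in muscle. Eif4ebp1, a translation repressor under mTOR, was higher in WAT (1.87), and Eif4ebp2 (-1.76) and Larp1 (-1.45), which binds TOP mRNAs, were lower in BAT. These counts are on the FPKM scale, and the median ratio turned the WAT median of the other TOP mRNAs from 0.53 to -0.27, that of ribosome biogenesis from 0.65 to -0.15 and the muscle median of mitochondrial ribosomal proteins from -0.08 to 0.28, while the BAT median of the latter went from 0.52 to 0.73. Myc was lower in muscle (-1.28, SE 0.42, limma adjusted p = 0.018), and in liver it was at 1.69, 1.95 and 12.8 FPKM.

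The organ labels were borne out by marker genes. Adipoq was at 1600 to 2850 FPKM in WAT, Ucp1 at 740 to 770 in BAT and at most 3.92 elsewhere, Apoa1 at 10000 to 13400 in liver and Ckm at 15700 to 16500 in muscle. Not every brown adipocyte marker was highest in BAT. Cidea was at 1120 to 1510 FPKM there, but Elovl3 was at 6.52 to 18.6 in BAT and 41.3 to 154 in liver. Ppargc1a was at 2.42 to 3.23 in BAT and 2.98 to 3.80 in muscle. Alas2, a red cell marker, was at 12.8 to 15.6 in WAT and 53.1 to 74.3 in liver. Alb has no value in the liver libraries. Summed macrophage markers were at 612, 864 and 1087 FPKM in WAT and 17.0 to 54.1 elsewhere, lymphocyte markers at 6.51 to 17.6 in WAT and 0.436 to 2.46 elsewhere, and red cell markers at 488 to 585 in WAT and 69.2 to 455 elsewhere. Brown adipocyte markers summed to 1901 to 2302 in BAT and white adipocyte markers to 4874 to 13524 in WAT. The part of macrophages, lymphocytes and red cells in the WAT levels of the members was not tested.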

How the data were processed

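RNA-seq libraries of 4 organs and 3 arms (12 samples, 1 per group) were analysed from 1 table. The authors placed the reads on mm9 with TopHat and estimated RefSeq gene levels with Cufflinks, and the deposited values are FPKM. FPKM is normalised to length and to mapped fragments, so no counts or depth were available, and intervals from counting error are not given. Groups followed the sample titles, and every sample column was matched by its name.

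The members and lists were chosen with earlier results of these data known. Symbols without a value in all libraries were left out. Organs were compared with limma 3.58.1 in R 4.3.3 (organ and arm as terms, empirical Bayes with trend) on log2(FPKM + 0.1), with genes at 1 FPKM or more in at least 1 library, Benjamini-Hochberg adjustment over all genes and a threshold of 0.05. The test was run on simulated data first. Arms were compared by differences between single libraries, with genes at 1 FPKM or more in at least 1 of the pair, and called past 1.4-fold. Members named were the 6 highest, the 5 largest called differences in each direction per organ, the 3 largest per arm comparison, the paralog pairs, the stalk proteins and Rpsa, near-0 members, proteins near the narciclasine site and up to 4 genes of each other list. Some genes that this rule picks are not reported here. Coding sequences and positions came from GENCODE vM1 on mm9 and promoters from RefSeq on GRCm38.p6, which matched 64 of 85 members. Alternatives were other pseudocounts, filters, scalings, priors and folds, and leaving out each library. Python 3.11.15, pandas 2.3.3, Biopython 1.88 and matplotlib 3.10.9 were used.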

Additional observations from a re-analysis of the deposited data

Results flagged for a closer look

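For the diet comparison, the median log2 difference of the members was 0.06 in muscle and -0.22 in liver, 0.281 apart. In muscle 56 of 81 members were above 0 (all genes, 55.1%), and in liver 75 of 81 were below 0 and 6 above (all genes, 54.0% above). For narciclasine, the median was 0.16 in liver and -0.07 in muscle, 0.23 apart. In liver 72 of 81 were above 0 (all genes, 52.4%), and in muscle 66 of 81 were below 0 and 15 above (all genes, 55.5% above). Both comparisons were singled out because the organs lay on opposite sides of 0. The difference between organs was not tested, since each arm had 1 library per organ, and both comparisons share the HFD-veh libraries.

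A pseudogene symbol outside the members, Rpl31-ps12, was listed at 70.7 to 146 FPKM in the 12 libraries, where Rpl31 itself was at 23.4 to 40.2. It was singled out as a signal in rows that the comparisons did not use. Rps19-ps3 was at 15.8 to 43.6 FPKM and Rpl34-ps1 below 0.1 in every library.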

How the results depend on the processing

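Scaling changed the group's direction. The median difference of the members turned to -0.29 in WAT and 0.15 in BAT under the median ratio, and to 0.10 in BAT and from 0.08 to -0.14 in liver (11 higher, 32 lower) when centred on the member median. With this centring all 13648 genes had a liver median of -0.62, with 2836 higher and 7971 lower. Centring puts the members near 0 by construction, so its muscle value of 0.0055 shows no direction. The count of called members was 70 in WAT and 34 when centred, 39 in liver and 62 under the median ratio, and 73 in muscle and 44 when centred. Over all genes these counts were 11609 and 10475 in WAT, 10603 and 10233 in liver, and 11088 and 10548 in muscle. Leaving out 1 library each gave 78 to 81 members with an organ difference, 66 to 71 in WAT, 29 to 46 in BAT (29 without BAT HFD-ncls), 29 to 42 in liver and 65 to 74 in muscle. The labels carry no replicate numbers to pair samples by. Arm, the second term of the fit, matches libraries of the organs, and without it 80 members differed between organs, 71 in WAT, 45 in BAT, 39 in liver and 73 in muscle.

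Counts past the fold between arms were small and moved with the settings. For diet in WAT the count was 2 and became 4 with no filter and 1 with FPKM of at least 5 or without members below 0.1 FPKM in either library, an alternative chosen after seeing the data. With FPKM of at least 5 it became 0 for diet in muscle. With a 2-fold threshold, diet counts were 0 in BAT and 0 in liver. For narciclasine, with FPKM of at least 5 the counts were 0 in WAT, 0 in BAT, 1 in liver and 0 in muscle, and with the 2-fold threshold they were 1 in BAT, 1 in liver and 1 in muscle. Without members below 0.1 FPKM they were 0 in WAT and 1 in liver, pseudocount 1 gave 1 in muscle, and 4 were past the fold in BAT with near-0 members counted.
The Rpl30 call in WAT was lost without WAT HFD-veh (adjusted p = 0.0896) and without WAT HFD-ncls (adjusted p = 0.0785), and the Rpl39l call in liver without liver HFD-veh (adjusted p = 0.063) and without liver HFD-ncls (adjusted p = 0.0542). Cause was not tested. With 6 residual degrees of freedom and no counts, differences of low genes were measured with little precision.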
